A study of Drosophila melanogaster with 6 samples.

Results

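The genes described are 10 enzymes of folate, one-carbon and nucleotide metabolism in Drosophila melanogaster, chosen by name because they belong to or border the pathway that methotrexate blocks. Ts, Fpgs1, CG8665, Sardh, Bhmt and CG10621 handle folates or methyl groups, Adsl and Adk3 act on purines, and su(r) and CG3788 act on pyrimidines. Of the 10, 9 had named spots among the 6795 genes of the S3 array design and 5 among the 2377 genes of the ovary design. Ts, CG8665, Adsl and CG3788 were on both designs, Adk3 was on the ovary design alone and the other 5 on the S3 design alone. All 9 and all 5 had a value on every array, so none was lost to a filter.

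The study set methotrexate-treated RNA against untreated RNA on 2-colour spotted cDNA arrays. S3 cells, a cultured Drosophila line, received methotrexate at 5.2e-08 M for 4 days or none (4 arrays), and flies received 5 ppm or none for 5 days before dissection of the ovaries (2 arrays). Whether the RNA of different arrays came from separate cultures or flies is not stated, so the spread that p-values measure here is that between hybridisations and could be technical. Neither the strain nor the age of the flies is given. Fewer cells of a type in an ovary and less RNA per cell cannot be told apart in these values. A ratio gives no level, so the labelled cells and tissue could not be checked against marker genes.

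Each value is a log ratio between the channels of 1 array, taken as log2. Which channel is the numerator is not known, so the sign of a ratio does not say which RNA held more of a transcript. By the labels, S3 arrays 1, 3 and 4 carried the treated RNA in the same dye and the same channel, and array 2 carried it in the other dye. The S3 means and tests therefore use arrays 1, 3 and 4, and the value on array 2 is given beside them as deposited. On both ovary arrays the label of the treated RNA was Cy5, although the series text speaks of swapped dyes. In the S3 fit and in the ovary fit alike, a gene's response to the dye cannot be told apart from its response to the drug.

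Tetrahydrofolate carries one-carbon units to the synthesis of thymidylate, of purines and of methionine. Methotrexate is an antifolate, a drug that resembles folate and lowers the supply of these carriers. Polyglutamate tails keep folates, and methotrexate itself, inside cells.

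Print blocks, the groups of spots laid down by 1 pin, explained 15.5% and 19.0% of the variance between spots on S3 arrays 1 and 2, and 4.3% and 3.7% on arrays 3 and 4. On the ovary arrays print blocks explained 2.2% and 10.9%. There the row number of a spot, pooled over all blocks, explained 21.1% and 17.8% of the variance left after block centring. Values below are centred on the median of each print block unless another centring is named. Duplicate spots then had an r of 0.14 to 0.44 within the S3 arrays, against 0.82 and 0.90 within the ovary arrays. Between arrays, the gene values of S3 arrays 1, 3 and 4 had an r of 0.09 to 0.18 and those of the ovary arrays 0.81 (genes are not independent replicates).

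In S3 cells none of the 9 enzymes passed the test against the spread between arrays. limma called 0 of 9 at an adjusted p under 0.05, against 0.0148% of all 6772 genes tested. Before adjustment 1 of the 9 was under 0.05, against 569 of the 6772, so the members' count was near that of all genes. The share called is a single gene, CG15347, which is no member and is named because it was the one call. Of the 9 members 8 had a negative mean ratio, where 51.7% of all genes did, and their median was -0.36, where that of all genes was -0.01. The same sign on arrays 1, 3 and 4 was seen for 5 of the 9 members and for 32.5% of all genes. With array medians in place of block medians, 8 of the 9 were again negative, at a median of -0.26 beside -0.02 for all genes, and 4 kept 1 sign on the arrays. The members were chosen with results of these arrays known, so these counts are a description.

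Ts encodes thymidylate synthase, which makes the thymine nucleotide of DNA. Its log2 ratios on S3 arrays 1, 3 and 4 were 0.08, 0.68 and -1.21, with 0.37 on array 2. Array 4 was thus far below the others, and both of its spots lay there, at -1.03 and -1.40. The spots were at -0.30 and 0.45 on array 1, 0.76 and 0.60 on array 3, and 0.54 and 0.21 on array 2. The mean of arrays 1, 3 and 4 was -0.15 ± 0.97 (SD, n = 3), and the 95% interval of the mean in limma ran from -0.95 to 0.65 (limma adjusted p = 0.910). Without array 4 the mean was 0.38, so the sign of the Ts mean rests on that array. Its print block carried medians of -0.27, -0.26 and 0.21 relative to arrays 1, 3 and 4. With array medians alone the Ts ratios were -0.20, 0.42 and -1.01.

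Fpgs1 encodes a folylpolyglutamate synthase, which adds glutamates to folates and so holds them in the cell. It had the narrowest gap between duplicate spots of the 9 members on arrays 1, 2 and 3, while su(r) and Sardh had narrower ones on array 4. Its ratios were -0.30, -0.44 and -0.60 on arrays 1, 3 and 4, and -0.24 on array 2. All 8 spot values were negative, and the duplicate spots differed by 0.0039 to 0.13, where the median gap of all duplicate pairs was 0.34 to 0.40 on the 4 arrays. The mean was -0.45 ± 0.15 (SD, n = 3), a 1.36-fold ratio, with an interval from -0.93 to 0.03 (limma adjusted p = 0.593). The result did not pass. With array medians the mean was -0.46 ± 0.11, at ratios of -0.59, -0.42 and -0.39.

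CG8665 encodes a homologue of 10-formyltetrahydrofolate dehydrogenase, which releases the one-carbon unit of formyl folate as carbon dioxide. Array 1 stood at -0.79, and arrays 3 and 4 at -0.13 and -0.17, with array 2 at -0.22. The spots agreed on array 1, at -0.75 and -0.83, and lay far apart on array 2, at -0.87 and 0.43. The mean was -0.37 ± 0.37 (SD, n = 3; limma adjusted p = 0.651), and -0.15 without array 1. On array 1 the print block lay 0.38 above the array median, and with array medians the CG8665 ratio there was -0.42. On array 3 it was then positive, at 0.04.

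Sardh encodes sarcosine dehydrogenase, which passes a one-carbon unit from sarcosine to tetrahydrofolate. Its gene means agreed closely, at 0.19, 0.19 and 0.15 on arrays 1, 3 and 4, a mean of 0.17 ± 0.02 (SD, n = 3). The spots behind them did not: on array 1 they were 1.53 and -1.15, and on array 3 they were -0.68 and 1.06. These gaps of 2.68 and 1.74 lay at percentiles 98.5 and 96.5 of the gaps of all duplicate pairs on those arrays. The SD of 0.02 is therefore no measure of the error of Sardh. The limma interval, which borrows its spread from all genes, ran from -0.30 to 0.64 (limma adjusted p = 0.812). On array 2 both spots were negative, at -0.84 and -0.76, outside the range of the gene means of the other arrays.

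**Figure D1:**
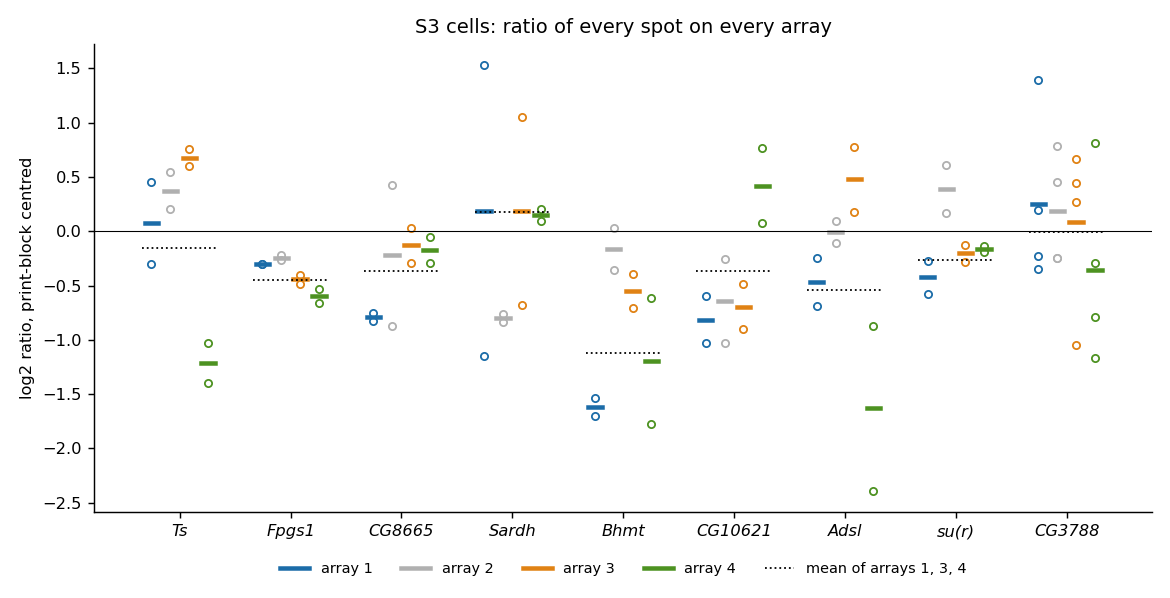
Log2 ratios of the 9 members on the S3 arrays after centring on print-block medians. Open circles are single spots, coloured bars are the mean of a gene's spots on 1 array, and dotted lines are means over arrays 1, 3 and 4. The spots of Fpgs1 lie between -0.66 and -0.22, while those of Sardh on array 1 lie at 1.53 and -1.15.

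Bhmt and CG10621 encode homocysteine methyltransferases, enzymes that turn homocysteine into methionine, and are next to each other in Release 6 of the Drosophila genome. The Bhmt ratios were -1.62, -0.55 and -1.19 on arrays 1, 3 and 4, and -0.16 on array 2. Arrays 1, 3 and 4 were all negative, and their 6 spots ran from -1.77 to -0.39. The duplicates were close on array 1, at -1.70 and -1.53, and wide on array 4, at -0.62 and -1.77. The mean of -1.12 ± 0.54 (SD, n = 3), a 2.17-fold ratio, was the farthest from 0 of the 9 members and stood at percentile 0.517 of all genes tested, counted from the most negative. Its interval ran from -1.71 to -0.53 and its limma p was under 0.05 before adjustment, but the limma adjusted p was 0.440. Leaving out 1 of the 3 arrays gave means from -1.40 to -0.87 and limma adjusted p of 0.396 or more.

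CG10621 had -0.81 and -0.70 on arrays 1 and 3, -0.64 on array 2 and 0.42 on array 4. Array 4 alone was positive, on both spots, at 0.76 and 0.08, and the 6 spots of the other arrays were all negative, from -1.03 to -0.25. The mean was -0.36 ± 0.68 (SD, n = 3; limma adjusted p = 0.715). It was -0.75 without array 4, -0.14 without array 1 and -0.20 without array 3. The neighbouring Bhmt was at -1.19 on the same array 4, so the genes had opposite signs there. How far related transcripts bind to each other's cDNA spots was not tested.

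Adsl encodes adenylosuccinate lyase, which acts in the synthesis of both AMP and the purine ring. Its ratios were -0.47, 0.48 and -1.63 on arrays 1, 3 and 4, and -0.01 on array 2. The mean of -0.54 ± 1.06 (SD, n = 3; limma adjusted p = 0.671) rested on array 4, where the spots were at -0.87 and -2.39. Without array 4 the mean was 0.0049. Of arrays 1, 3 and 4, Ts was also lowest on array 4 and highest on array 3. None of the other members had this order. Some other folate and purine genes on the S3 arrays had it and others did not. Its share of all genes was not counted, so no shared behaviour is read from it.

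su(r) encodes dihydropyrimidine dehydrogenase, the first step of pyrimidine breakdown. It was negative on arrays 1, 3 and 4, at -0.43, -0.20 and -0.17, and positive on array 2, at 0.39, where its spots were at 0.17 and 0.61. Its duplicate spots never differed in sign, with gaps from 0.05 to 0.44. The mean was -0.27 ± 0.14 (SD, n = 3), within an interval from -0.74 to 0.21 (limma adjusted p = 0.715).

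CG3788 encodes a predicted uridine phosphorylase, which splits uridine into uracil and ribose phosphate. It was printed as 2 pairs of spots in different print blocks. The first pair averaged -0.08, 0.36 and -0.54 on arrays 1, 3 and 4, and the second 0.58, -0.19 and -0.18. The pairs had opposite signs on arrays 1 and 3, and the spots of the second pair lay 1.63, 1.71 and 1.99 apart. The mean of all 4 spots over the 3 arrays was -0.01 ± 0.32 (SD, n = 3), with an interval from -0.52 to 0.51 (limma adjusted p = 0.996). Over the 9 members and the 4 arrays, the neighbouring spots had opposite signs in 13 of 40 cases, 6 of them of CG3788. The share over all duplicate pairs was not counted, so this describes the members alone.

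**Figure D2:**
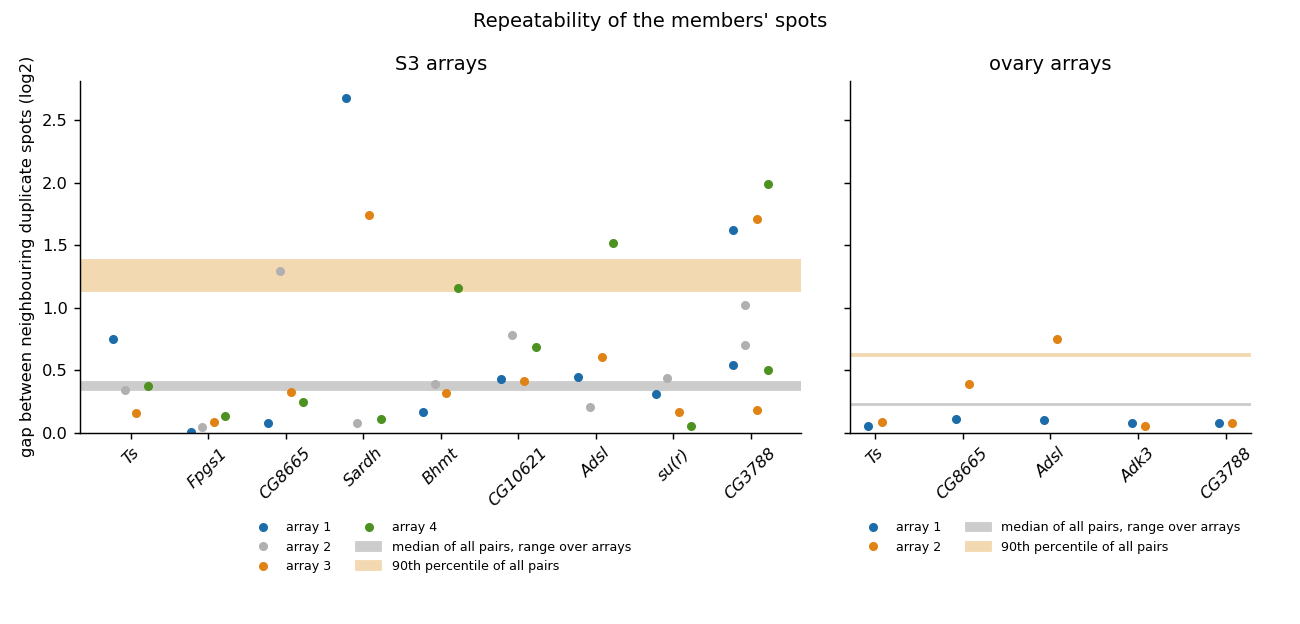
Absolute difference in log2 ratio between neighbouring duplicate spots of each member, on the S3 arrays and the ovary arrays, after print-block centring. Grey and tan bands give the median and the 90th percentile of all duplicate pairs, as the range over arrays. The Fpgs1 gaps are all at or under 0.13, and the widest gap is that of Sardh on S3 array 1, at 2.68.

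Array 2 could be read with either sign. With block medians its gene values had an r of 0.10, 0.06 and 0.14 with arrays 1, 3 and 4. With array medians the r was -0.19, -0.08 and 0.20, so these values do not settle the sign. With array 2 added as deposited, the means over 4 arrays were -0.02 for Ts, -0.40 for Fpgs1, -0.88 for Bhmt and -0.069 for Sardh. With its sign turned they were -0.21, -0.28, -0.80 and 0.33. The sign of array 2 thus decided the sign of the Sardh mean, and the Bhmt and Fpgs1 means were negative with either. limma called 0 of the 9 members in both readings, also with array medians.

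**Figure D3:**
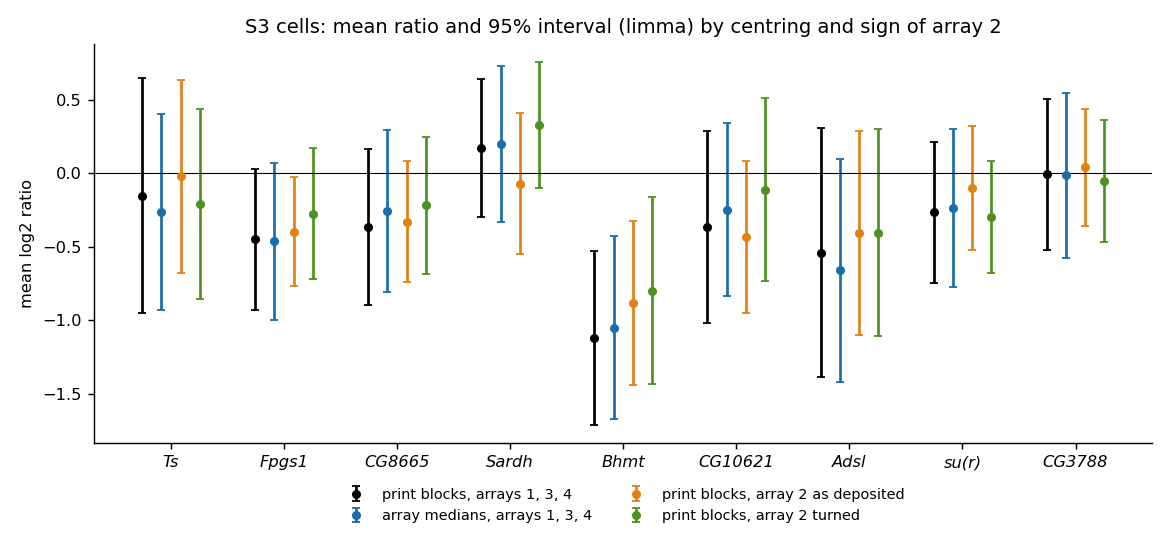
Mean log2 ratio of each member on the S3 arrays with its 95% interval from limma, for 2 centrings on arrays 1, 3 and 4 and for array 2 added with either sign. The Bhmt interval lies under 0 in all 4 fits shown, and the Sardh mean is negative only with array 2 as deposited. No member passed after adjustment over all genes.

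In the ovaries 5 of the enzymes were measured and 1 of them passed, Adk3. limma called 49.1% of all 2377 ovary genes with print blocks centred, so 1 of 5 is no result about the enzymes. Of the 5, 3 had the same sign on both arrays, where 87.1% of all genes did. Adk3 encodes an adenylate kinase, which acts on AMP. Its ratios were 0.97 and 0.35 on arrays 1 and 2, and all 4 spots were positive, from 0.32 to 1.01. The mean was 0.66 ± 0.44 (SD, n = 2), a 1.58-fold ratio, with an interval from 0.19 to 1.13 (limma adjusted p = 0.0195). With array medians the ratios were 0.997 and 0.548, with a mean of 0.77 ± 0.32 (limma adjusted p = 0.0186), where 39.0% of all genes were called. Its spots lay in row 3 of their print block, and the medians of that row number over all blocks were 0.34 and 0.26 on the 2 arrays. With rows centred as well, the ratios were 0.63 and 0.09 and Adk3 did not pass (limma adjusted p = 0.249). Row centring moved the median of all ovary genes to -0.02, against -0.16 with print blocks alone, while the Adk3 mean went the other way, to 0.36 against 0.66.

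Adsl was negative on both ovary arrays, at -0.74 and -0.24. On array 2 its spots disagreed, at 0.14 and -0.61. The mean was -0.49 ± 0.36 (SD, n = 2; limma adjusted p = 0.0731), short of the threshold. With rows centred the mean was -0.58 ± 0.31 and Adsl passed (limma adjusted p = 0.0423), in a fit that called 32.3% of all genes. With array medians array 2 was positive, at 0.08, and the limma adjusted p was 0.222.

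Ts had opposite signs on the ovary arrays, at 0.49 and -0.60, although its duplicate spots differed by only 0.05 and 0.09. The mean was -0.05 ± 0.78 (SD, n = 2; limma adjusted p = 0.855). Ts lay in row 21 of its block, and the medians of that row number over all blocks were -0.72 and -0.44. Centring rows gave 1.21 and -0.16. The arrays thus disagreed on Ts under each of the 3 centrings.

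CG8665 was at -0.67 and -0.19, averaging -0.43 ± 0.34 (SD, n = 2), and did not pass (limma adjusted p = 0.114). Its spots were at -0.72 and -0.62 on array 1. With rows centred it was at -0.27 and 0.17. CG3788 was at -0.16 and 0.06, a mean of -0.05 ± 0.16 (SD, n = 2), with an interval from -0.51 to 0.41 (limma adjusted p = 0.858). Its ovary spots differed by 0.07 and 0.08, much less than its S3 spots. With rows centred CG3788 was positive on both arrays, at 0.24 and 0.36, and did not pass (limma adjusted p = 0.358).

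**Figure D4:**
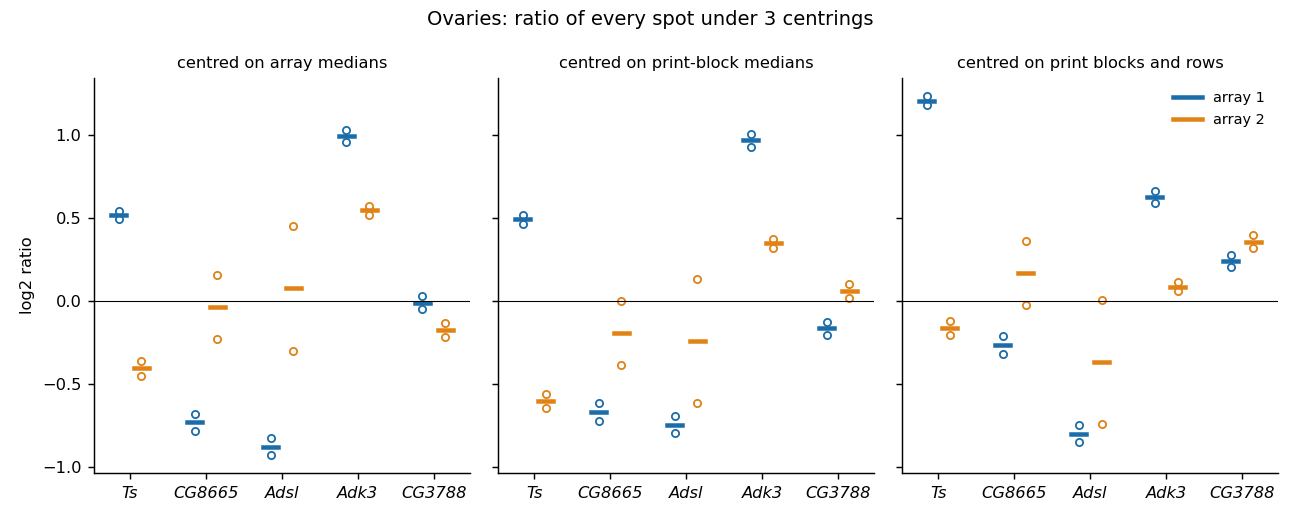
Log2 ratios of the 5 members on the ovary arrays, with each array centred on its median, on print blocks, and on print blocks and rows. Open circles are spots and bars are means of a gene's spots on 1 array. Adk3 is positive on both arrays throughout, with array 2 at 0.548, 0.35 and 0.09, and the arrays lie on opposite sides of 0 for Ts throughout.

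The 4 enzymes on both designs can be set side by side, though the directions of the S3 and ovary ratios are not known to match. Ts averaged -0.15 in S3 cells and -0.05 in ovaries, CG8665 -0.37 and -0.43, Adsl -0.54 and -0.49, and CG3788 -0.01 and -0.05. These means depend on the centring and, for Ts and Adsl, on single arrays, so near-equal pairs are no agreement. Without array 4 the S3 means were 0.38 for Ts and 0.0049 for Adsl. On the ovary arrays Ts was at 0.49 and -0.60. With rows centred the S3 and ovary means were -0.10 and 0.52 for Ts, -0.33 and -0.05 for CG8665, -0.50 and -0.58 for Adsl, and -0.03 and 0.30 for CG3788. None of the 4 passed in either material with print blocks centred. The difference between the materials was not tested.

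The rest of the pathway was taken from 3 lists of genes. On the S3 design the lists held 14 further folate and one-carbon genes, 10 purine genes and 9 pyrimidine and deoxynucleotide genes, and limma called 0 in each. Of the 14 folate genes 9 were negative, at a median of -0.06. The glycine decarboxylase gene CG3999, of the cleavage system that feeds glycine carbon to folate, was positive on arrays 1, 3 and 4 at 0.69, 0.61 and 0.44 and negative on array 2 at -0.52. Its mean was 0.58 ± 0.13 (SD, n = 3; limma adjusted p = 0.586). Nmdmc, which encodes a mitochondrial methylenetetrahydrofolate dehydrogenase, averaged 0.44 ± 0.48 (SD, n = 3; limma adjusted p = 0.631).

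Of the 10 further purine genes 5 were negative, at a median of -0.01. The adenosine deaminase gene Adgf-A averaged -0.80 ± 1.02 (SD, n = 3; limma adjusted p = 0.593), with array 3 at -1.97 far below arrays 1 and 4. ry, which encodes xanthine dehydrogenase, averaged -0.48 ± 0.27 (SD, n = 3; limma adjusted p = 0.593) and was negative on all 4 arrays.

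Of the 9 further pyrimidine genes 7 were negative, at a median of -0.13. CG17224, another predicted uridine phosphorylase, was at -1.072, -0.806 and -0.996 on arrays 1, 3 and 4, and -0.826 on array 2. Its mean was -0.96 ± 0.14 (SD, n = 3), a 1.94-fold ratio, and did not pass (limma adjusted p = 0.405). CG3788, of the same kind of enzyme, was at -0.01. The cytidine deaminase gene CG8349 averaged -0.81 ± 0.89 (SD, n = 3; limma adjusted p = 0.586), with arrays 1 and 3 at -1.69 and 0.09. pyd3, named after its values were seen because it ends the breakdown route that su(r) begins, was at -0.80, -0.40 and -0.29 on arrays 1, 3 and 4 and 0.20 on array 2 (limma adjusted p = 0.586). With array medians it was at -0.03 on array 2.

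**Figure D5:**
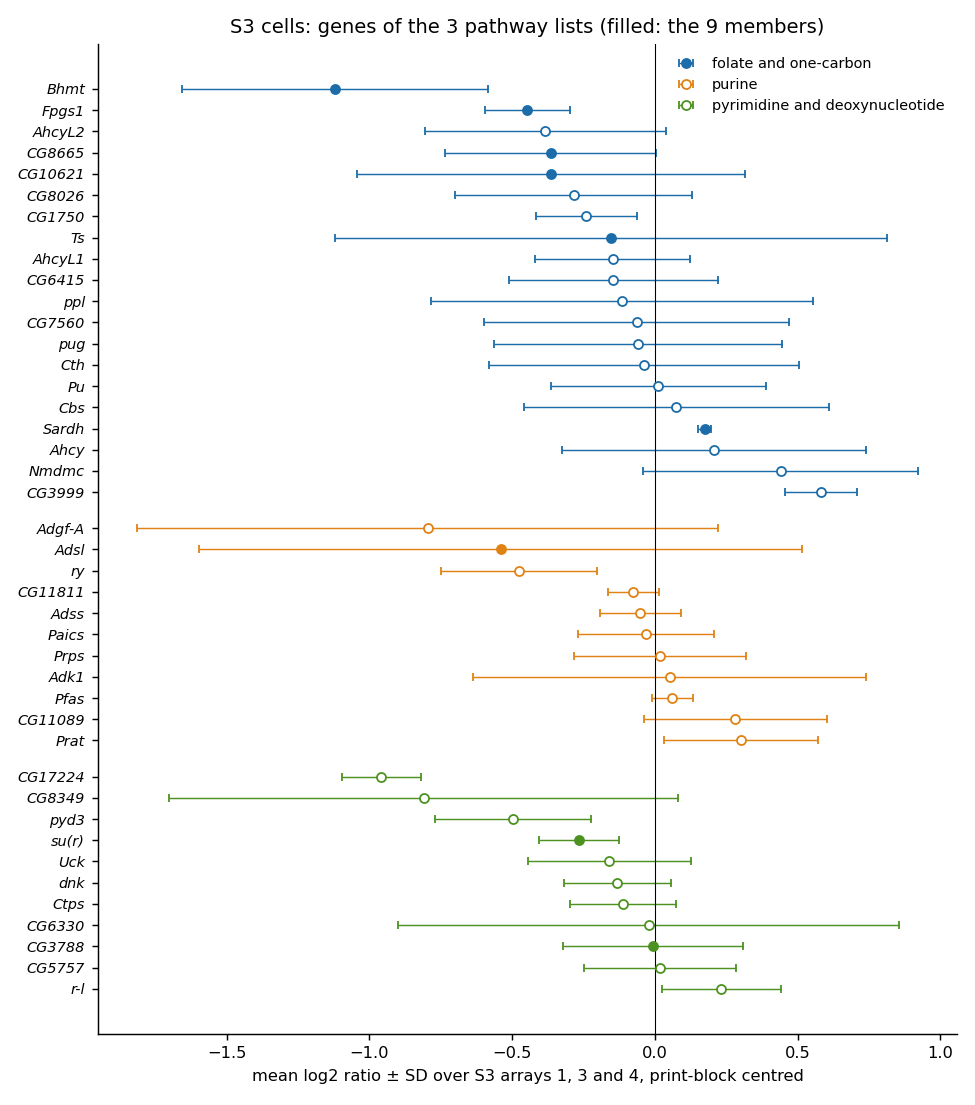
Mean log2 ratio on S3 arrays 1, 3 and 4 of the genes of the 3 pathway lists, with bars of 1 SD (n = 3), centred on print blocks. Filled points are members and open points the other genes. Bhmt lies farthest to the negative side, at -1.12, followed by CG17224 at -0.96, and CG3999 farthest to the positive side, at 0.58.

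On the ovary design each list had 3 further genes, of which 1 passed per list with print blocks centred, all positive. With 49.1% of all ovary genes called in that fit, 1 of 3 is no result about the lists. CG1750, which encodes a methionyl-tRNA formyltransferase and so uses formyl folate, was at 1.68 and 1.53, averaging 1.61 ± 0.11 (SD, n = 2; limma adjusted p = 1.22e-06). It also passed with rows centred, at 1.34 (limma adjusted p = 5.45e-07), and with array medians. In S3 cells CG1750 averaged -0.24 ± 0.18 (SD, n = 3) and did not pass. The uridine kinase gene Uck averaged 0.83 ± 0.20 (SD, n = 2; limma adjusted p = 0.00391), and 0.53 with rows centred, where it did not pass (limma adjusted p = 0.0705). The guanylate kinase gene CG11811 had 1.27 and 0.07, averaging 0.67 ± 0.85 (SD, n = 2; limma adjusted p = 0.0251), and did not pass with rows centred (limma adjusted p = 0.0908), with array medians (0.0821), with no centring (0.0505) or with equal scale (0.0879). With array medians its array 2 was negative, at -0.27. CG8026, a mitochondrial folate carrier gene, was at -0.51 and -0.50, with a mean of -0.51 ± 0.01 (limma adjusted p = 0.0607). It passed with array medians at -0.66 (limma adjusted p = 0.0428) and with equal scale at -0.52. With rows centred CG8026 was at -0.14 and -0.36, a mean of -0.25 ± 0.16, and did not pass. The AMP deaminase gene AMPdeam averaged -0.31 ± 0.19 (SD, n = 2; limma adjusted p = 0.253) and CG8349 -0.34 ± 0.42 (SD, n = 2; limma adjusted p = 0.205).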

How the data were processed

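The authors deposited 1 log ratio per spot, read here as log2. Its base, numerator, background correction and normalisation are not given in the sources used here, so scale and direction are unknown. The deposited medians of the arrays ran from -0.02 to 0.18. Spots were named through the platform annotation and updated by Entrez number to Release 6 symbols (15116 of 27648 S3 spots and 5666 of 16896 ovary spots had 1 gene). Print blocks (48 of 576 spots on the S3 design, 32 of 528 on the ovary design) were inferred from the values. Rows within a block were taken as 24 spots. Row centring, an alternative, subtracted the median of each row number over all blocks after block centring. Each array was centred on block medians, spots of a gene were averaged, and limma 3.58.1 in R 4.3.3 compared the mean ratio with 0 (two-sided) for all genes with a value on every array. S3 and ovary arrays had separate fits, each with Benjamini-Hochberg adjustment at 0.05. Tables and plots used Python 3.11.15, pandas 2.3.3 and matplotlib 3.10.9.

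Members and lists were chosen with earlier results of these data known. Besides the members, the genes named are list genes that passed and, per list and tissue, the 2 with the smallest p. CG15347 and pyd3 fall outside this rule and were chosen after their values were seen. Alternatives were other centrings, equal scale, spot medians, robust eBayes, a threshold of 0.10, either sign of array 2, and single arrays left out. No protein or probe sequence was used here, and the values hold no signal over background. The number of arrays limits the precision.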

Additional observations from a re-analysis of the deposited data

Results flagged for a closer look

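On the S3 arrays with array 2 as deposited, 3 of the 9 members had 1 array far from the others, by the gap to the nearest array over the range of all 4 (Dixon's rule, which flags about 1 in 20 groups by chance). That rate is for 4 values of 1 kind, whereas array 2 carried the treated RNA in the other dye. The share of all genes flagged was not counted, so the count describes the members alone and shows no excess. CG10621 was flagged on array 4, at 0.42, CG8665 on array 1, at -0.79, and Sardh on array 2, at -0.80. With array 2 turned, the gap was 0.94 of the range for Sardh, still beyond the rule's limit, and 0.61 for CG8665 and 0.15 for CG10621, within it. The Sardh flag rests on the closeness of its gene means on arrays 1, 3 and 4, which is no measure of their error. The 4 Sardh spots on arrays 1 and 3 were at 1.53, -1.15, -0.68 and 1.06, a range that holds the value on array 2.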

How the results depend on the processing

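Over the alternatives run, 0 of the 9 S3 members passed. Of 126 alternative member means, 115 had the same sign and side of the threshold and 11 changed sign, all of uncalled genes. Robust eBayes and the threshold of 0.10 leave every mean unchanged, as do spot medians for a gene with a single pair of spots. Agreement in sign was therefore fixed in advance under those settings. CG3788 turned positive with no centring (0.092), with equal scale (0.025) and with array 2 added as deposited (0.041 with block medians, 0.083 with array medians). With array 2 as deposited Sardh turned negative (-0.069 with block medians, -0.11 with array medians), and Ts positive with array medians (0.031). With array medians and array 2 turned, CG10621 was at 0.034. Leaving out 1 array gave Adsl means from -1.05 to 0.0049, CG3788 from -0.14 to 0.17 and Ts from -0.57 to 0.38, with the highest each time without array 4. The call of CG15347 was lost with equal scale (0 genes) and with array 2 added with either sign and blocks centred (0 and 0), and array medians with array 2 gave 3 genes as deposited and 0 turned. Leaving out array 1 gave 36 genes and leaving out array 3 or 4 gave 0. At an unadjusted p under 0.05 limma had 569 genes on arrays 1, 3 and 4. In the ovary 1166 genes passed with block medians, 767 with rows centred as well and 0 with array 2 turned. With blocks centred the ovary arrays had an r of 0.81, and by the labels they had the same dye. The loss of calls on turning array 2, for the members too, was therefore largely fixed in advance. The split was 584 positive and 582 negative calls with block medians and 559 and 284 with no centring. Of the 5 members 1 passed, 2 at a threshold of 0.10 (Adk3 and Adsl) and 0 with array 2 turned (Adk3 at 0.31). With rows centred Adk3 was lost (0.36) and Adsl passed (-0.58). Ts turned positive with array medians (0.058), no centring (0.14), rows centred (0.52) and array 2 turned (0.55), and CG3788 with rows centred (0.30). No test was run with a single ovary array. The causes were not tested. No paired analysis was possible because each ratio already pairs treated with untreated RNA on 1 array, which leaves no replicate block to add, and the S3 and ovary arrays are of different designs.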
